A study of Mus musculus with 10 samples.

Results

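The cytochrome P450 genes Cyp2c29, Cyp2c37, Cyp2c38, Cyp2c39, Cyp2c50, Cyp2c54, Cyp2c70, Cyp3a11, Cyp3a13, and Cyp3a25 were followed in hepatocytes that lacked Nrf2, p65, or both. They were taken by name, as the rows of the deposited gene table whose Ensembl identifier belongs to these symbols, and are 10 of the 21939 genes in that table. RNA was sequenced from freshly isolated hepatocytes of 10 male mice, with 1 library per mouse. All 10 genes had at least 10 counts summed over the 10 libraries and were tested.

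All mice, controls included, received AAV8Cre, a virus of the adeno-associated family in which the thyroxine-binding globulin promoter, active in hepatocytes, drives Cre recombinase. The 3 libraries labelled control came from wild-type C57BL/6J mice without floxed alleles. The 2 libraries labelled Nrf2 KO came from mice with floxed alleles of Nrf2, the 2 labelled p65 KO from mice with floxed alleles of p65, and the 3 labelled DKO from mice with floxed alleles of both genes, all on the same background. The study used mice of 8 to 9 weeks. For its injury experiments it gives a higher age 12 days after induction, so 8 to 9 weeks is read here as the age at injection. The sequenced mice were analyzed 12 days after the virus was injected. Injection and killing took place in the morning. Hepatocytes were separated from the perfused liver by low-speed centrifugation and Percoll, so other liver cells could remain in the preparation. Because RNA came from bulk suspensions, fewer cells of a type and less RNA per cell cannot be told apart.

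Cytochrome P450 enzymes of the Cyp2c and Cyp3a families sit in the endoplasmic reticulum of hepatocytes and insert oxygen into drugs, steroids, and fatty acids. They receive electrons from the cytochrome P450 reductase encoded by Por and contain heme, whose synthesis starts with the product of Alas1. The nuclear receptors CAR and PXR, encoded by Nr1i3 and Nr1i2, bind foreign compounds and drive transcription of many of these genes. Inflammatory cytokines are known to lower P450 expression in liver, and Nrf2 controls other detoxification enzymes.

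In these libraries, Cyp3a25 fell in each of the 3 knockout genotypes, with log2 fold changes from -0.66 to -0.45 against control. Cyp3a11, the Cyp3a gene with the highest level, fell 1.05 on the log2 scale in p65 KO. Cyp2c37 fell 1.12 on the log2 scale in DKO and differed between DKO and p65 KO by -1.15. The other 7 genes passed edgeR's test in none of the comparisons between genotypes when all 10 libraries were fitted together after TMM normalization. However, Cyp2c38 and Cyp2c54 passed under some other settings given below, and Cyp2c29 and Cyp2c50 only in the fit without DKO replicate 3. In 2 of the 3 DKO libraries, Cyp2c29, Cyp2c50, and Cyp2c54 were below every control library, whereas the third DKO library was above the control mean for each of them.

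The 7 Cyp2c genes lie within 917.9 kb of chromosome 19, from 39257849 to 40175777 (GRCm39). Rela, which encodes p65, lies on the same chromosome, 33.6 Mb from Cyp2c29. The Cyp3a genes lie on chromosome 5, where Cyp3a11 spans 145791236 to 145816867 and Cyp3a25 spans 145913516 to 145946432, while Cyp3a13 is 7.87 Mb from Cyp3a11. All are protein-coding genes.

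The RefSeq promoter table (GRCm38.p6) held a window for 9 of the 10 genes, all but Cyp2c54. The 250 bases before the start site are shown for both Cyp3a genes that fell and for Cyp2c37 and Cyp2c50, which were low together in 2 DKO libraries. They are chr5:145879855-145880104 on the minus strand for Cyp3a11, chr5:146009619-146009868 on the minus strand for Cyp3a25, chr19:39992174-39992423 on the plus strand for Cyp2c37, and chr19:40089429-40089678 on the plus strand for Cyp2c50. Capitals mark matches, on either strand, to AGGTCA (the half-site that nuclear receptors recognize), CAAAGTCCA (a site of the HNF4A type), TTANGTAA (the D-box of Dbp, Tef, and Hlf), TGACNNNGC (the core of the antioxidant response element bound by Nrf2), and GGNNNTTCC (the core of a NF-κB site).
Cyp3a11: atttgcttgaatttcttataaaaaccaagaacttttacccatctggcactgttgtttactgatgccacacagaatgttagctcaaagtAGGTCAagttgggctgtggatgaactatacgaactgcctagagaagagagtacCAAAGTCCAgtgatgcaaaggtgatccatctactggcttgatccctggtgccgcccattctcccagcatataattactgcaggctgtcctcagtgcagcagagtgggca
Cyp3a25: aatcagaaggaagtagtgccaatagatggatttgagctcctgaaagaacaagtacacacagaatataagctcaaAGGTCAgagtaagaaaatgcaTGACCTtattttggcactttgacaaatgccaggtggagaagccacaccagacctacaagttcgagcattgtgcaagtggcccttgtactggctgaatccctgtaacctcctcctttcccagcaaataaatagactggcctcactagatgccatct
Cyp2c37: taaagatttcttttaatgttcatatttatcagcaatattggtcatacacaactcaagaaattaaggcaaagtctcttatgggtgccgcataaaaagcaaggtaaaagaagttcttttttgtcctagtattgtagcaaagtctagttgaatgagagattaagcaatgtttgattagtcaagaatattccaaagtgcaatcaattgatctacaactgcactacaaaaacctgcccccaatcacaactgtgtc
Cyp2c50: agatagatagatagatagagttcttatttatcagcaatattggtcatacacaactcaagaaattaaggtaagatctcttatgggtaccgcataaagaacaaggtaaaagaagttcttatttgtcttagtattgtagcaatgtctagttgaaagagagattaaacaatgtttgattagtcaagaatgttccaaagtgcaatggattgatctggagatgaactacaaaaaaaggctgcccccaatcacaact

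AGGTCA was found in 4 of the 9 windows, those of Cyp3a11, Cyp3a25, Cyp2c29, and Cyp2c70, against 14% of all 32851 promoter windows. Cyp3a25 held it once on each strand. CAAAGTCCA was present in the windows of Cyp3a11 and Cyp2c70, against 0.384% of all windows. TTANGTAA occurred in Cyp2c38 alone, against 2.06% of all windows. TGACNNNGC and GGNNNTTCC were in none of the 9 windows, against 10.2% and 15.7% of all windows. The windows of Cyp2c37 and Cyp2c50 held no match to any of these patterns and are therefore printed without capitals. No match to 1 pattern overlapped a match to another in these 9 windows. The windows of Cyp2c37 and Cyp2c50 were identical at 215 of 250 aligned bases (86%), and those of Cyp3a11 and Cyp3a25 at 146 (58.4%).

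Total counts per library ranged from 33707165 to 49897382. The hepatocyte markers (8 of 8 genes, among them Alb, Apoa1, and Ttr) summed to between 4257400 and 6772500 normalized counts in every library. The Nfe2l2 gene total, which stands for Nrf2, ranged from 1990 to 2318 normalized counts in control and from 3434 to 5240 in the 5 libraries labelled Nrf2 KO or DKO, so it was higher where the label says that it was deleted. The Rela total lay between 1034 and 1489 in all libraries and overlapped between control and the libraries labelled DKO. Both libraries labelled p65 KO were below all controls in it, with a log2 fold change of -0.07 (adjusted p = 0.765). These totals cover whole genes, including exons outside a deleted part, and therefore do not check the labels. Of 14 Nrf2 target genes, 11 were lower in Nrf2 KO and 13 in DKO (adjusted p of at most 0.05), among them Gstm1. In p65 KO, 4 of the 14 were also lower and 1 was higher. Gstm1 was among those lower there, with a log2 fold change of -0.71 (adjusted p = 0.0379 in edgeR's test). All directions below rest on the genotype labels.

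The order of levels was compared per kilobase of the canonical transcript. In control, Cyp3a11 had 72299 ± 14734 normalized counts per kb (SD, n = 3) and ranked 44 among all genes. Cyp2c29 followed with 21443 ± 2647 and Cyp3a25 with 12079 ± 718 normalized counts per kb. Cyp2c50 (8266 ± 569) and Cyp2c70 (7426 ± 1647) overlapped in their control libraries, as did Cyp2c54 (1952 ± 169) and Cyp2c37 (1874 ± 214), and Cyp2c37 and Cyp3a13 (1519 ± 167). Cyp2c38, with 145 ± 21.6 normalized counts per kb, and Cyp2c39, with 6.75 ± 1.68, were far below the others. Cyp2c39 had between 11.6 and 53.8 normalized counts per library, and its differences are the least precise of the 10, with a 95% interval of its log2 fold change against control reaching up to 1.49 to either side.

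**Figure D1:**
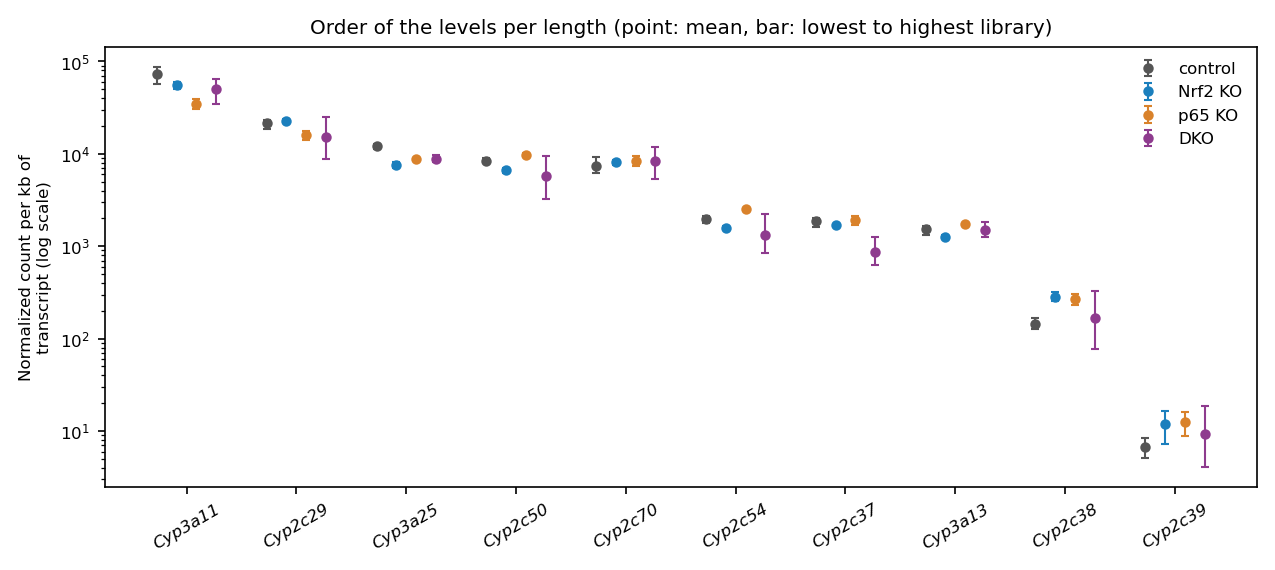
Mean normalized count per kb of canonical transcript for each gene and genotype on a log axis, with bars from the lowest to the highest library. Cyp3a11 was highest in every genotype and Cyp2c39 lowest, and the p65 KO libraries of Cyp3a11 lay below its control libraries.

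Cyp3a11 encodes the main Cyp3a enzyme of mouse liver, which oxidizes many drugs and steroids and is a classical PXR target. Its normalized counts were 212180, 176040, and 140360 in the control libraries and 74923 and 94913 in the p65 KO libraries. Both p65 KO libraries were thus below all controls, at 42.5% and 53.9% of the control mean. The log2 fold change was -1.05 (SE 0.262, 95% interval -1.63 to -0.48, adjusted p = 0.0242 in edgeR's quasi-likelihood test). The call was lost without control replicate 1 (-0.90, adjusted p = 0.0755), control replicate 2 (adjusted p = 0.0514), p65 KO replicate 1 (adjusted p = 0.186), or p65 KO replicate 2 (adjusted p = 0.0574).

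The Nrf2 KO libraries had 145810 and 122190 normalized counts of Cyp3a11, of which 1 lay within the control range. The log2 fold change was -0.40 (SE 0.256, adjusted p = 0.726), and its 95% interval of -0.96 to 0.17 includes 0. The DKO libraries had 132250, 83999, and 155490 normalized counts. One DKO library was inside the control range and the others below it, with a log2 fold change of -0.51 (SE 0.227, adjusted p = 0.215). DKO and p65 KO differed by 0.55 on the log2 scale (SE 0.257, 95% interval -0.02 to 1.11, adjusted p = 0.238), so a higher level in DKO than in p65 KO was not called.

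Cyp3a25 encodes a Cyp3a enzyme of liver and intestine. Control libraries had 25655, 22777, and 24367 normalized counts. The Nrf2 KO libraries had 14278 and 16368, the p65 KO libraries 17172 and 18279, and the DKO libraries 16768, 19516, and 16291. All 7 knockout libraries were below all 3 controls, at 58.8% to 80.4% of the control mean. The log2 fold change was -0.66 for Nrf2 KO (SE 0.128, adjusted p = 0.0469), -0.45 for p65 KO (SE 0.127, adjusted p = 0.0374), and -0.47 for DKO (SE 0.112, adjusted p = 0.0363), all below the fold threshold of 1 on the log2 scale. These 3 comparisons share the control libraries. The adjusted p stayed at or under 0.05 in 2, 3, and 2 of the 10 fits that each left out 1 library, with values up to 0.396, 0.204, and 0.129, and log2 fold changes between -0.77 and -0.41. Of 12 other settings it stayed there in 9, 8, and 9. Without further scaling it was 0.401, 0.199, and 0.0525, and with equal totals the log2 fold change of Cyp3a25 for p65 KO was -0.27 (adjusted p = 0.166).

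DKO was not called for Cyp3a25 against Nrf2 KO, with a difference of 0.19 on the log2 scale (SE 0.126, 95% interval -0.08 to 0.47, adjusted p = 0.513), or against p65 KO (-0.02, SE 0.125, 95% interval -0.29 to 0.26, adjusted p = 0.953). The interaction subtracts the Nrf2 KO effect in mice with p65 from the effect of adding the Nrf2 deletion to p65 KO. It was 0.65 (SE 0.179, adjusted p = 0.164), and it passed only in the DESeq2 Wald test (0.64, adjusted p = 0.0145). For Cyp3a11 the interaction was 0.94 (SE 0.362, adjusted p = 0.298). Both values are above 0, which means that DKO was less low than the sum of both single differences, but neither passed edgeR's test.

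Cyp3a13 lies apart from the other Cyp3a genes on chromosome 5. Its normalized counts were 4926, 3955, and 4589 in control, 3572 and 3916 in Nrf2 KO, 4999 and 5297 in p65 KO, and 3768, 5415, and 4103 in DKO. Both Nrf2 KO libraries were below and both p65 KO libraries above all controls. The differences were -0.26 (SE 0.158, adjusted p = 0.695) and 0.20 (SE 0.156, adjusted p = 0.417), so neither was called. The DKO libraries overlapped the controls (-0.02, SE 0.141, 95% interval -0.33 to 0.29).

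**Figure D2:**
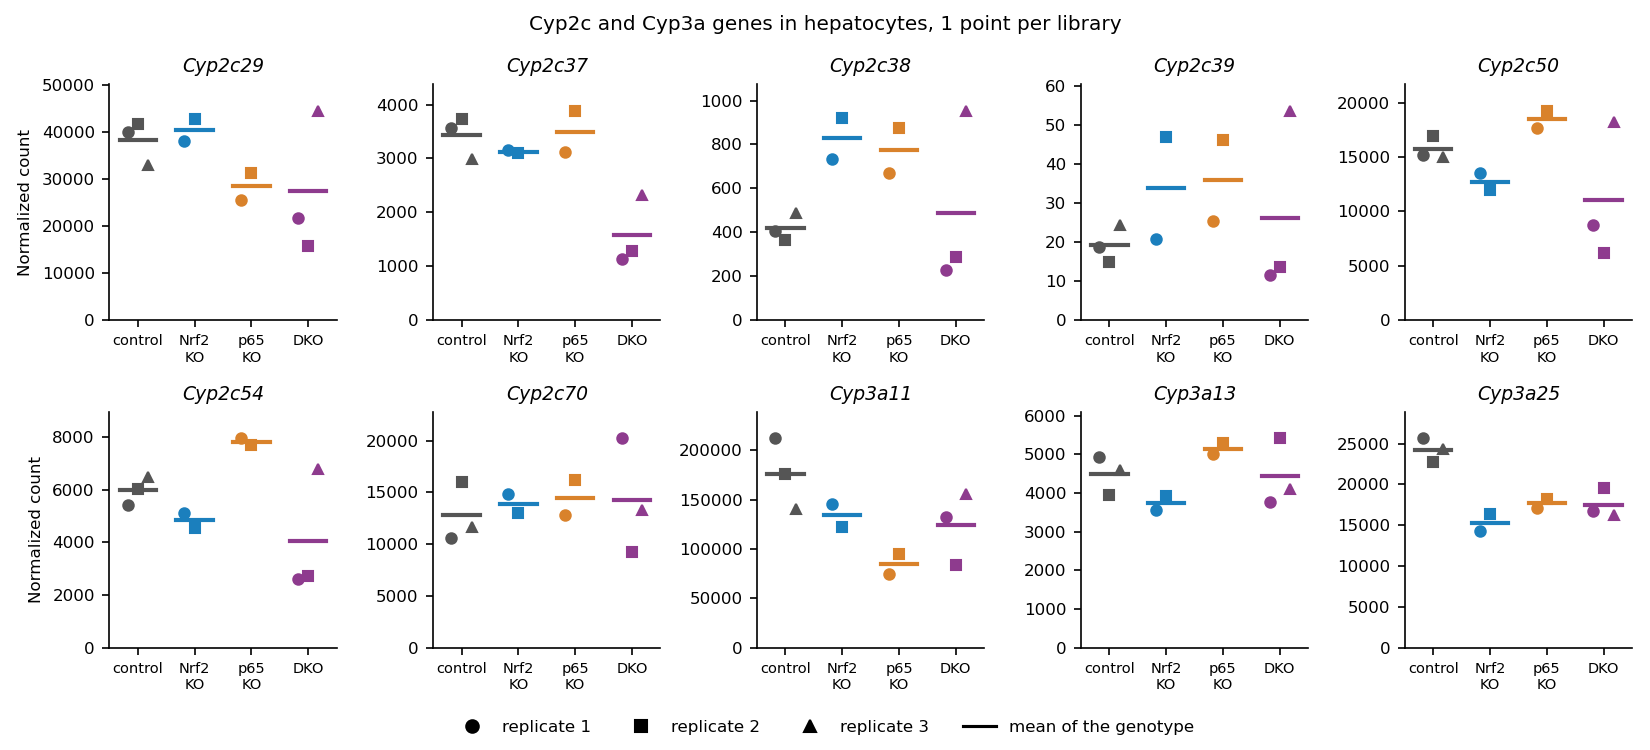
Normalized count of each gene in each of the 10 libraries on a linear axis from 0, with marker shape for the replicate and a line at the mean of the genotype. All 7 knockout libraries of Cyp3a25 were below its controls, and DKO replicate 3 lay above the other DKO libraries for Cyp2c29, Cyp2c37, Cyp2c38, Cyp2c39, Cyp2c50, and Cyp2c54.

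Among the Cyp2c genes, Cyp2c37 encodes a hydroxylase of arachidonic acid. Its normalized counts were 3572, 3724, and 2983 in control, 3148 and 3106 in Nrf2 KO, 3110 and 3887 in p65 KO, and 1134, 1276, and 2315 in DKO. All 3 DKO libraries were below every other library. The log2 fold change of DKO against control was -1.12 (SE 0.231, 95% interval -1.63 to -0.61, adjusted p = 0.0216 in edgeR's quasi-likelihood test). Against p65 KO it was -1.15 (SE 0.251, adjusted p = 0.0341), and against Nrf2 KO -0.99 (SE 0.251, adjusted p = 0.121). Neither single knockout was called against control, with log2 fold changes of -0.13 (SE 0.254, 95% interval -0.69 to 0.43) in Nrf2 KO and 0.03 (SE 0.254, 95% interval -0.53 to 0.59) in p65 KO.

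The call of Cyp2c37 in DKO was lost without control replicate 1 (adjusted p = 0.0764), control replicate 2 (0.0694), DKO replicate 1 (0.0561), or DKO replicate 2 (0.0608), and without DKO replicate 3 the difference was -1.50 (adjusted p = 0.000675). The transcripts of Cyp2c37 share 43% of their 31-base words with other genes, mostly Cyp2c50 and Cyp2c54, but 3.28% of their 100-base words, the length of the reads. How Salmon divided reads among these genes can therefore affect their split. Summed over Cyp2c37, Cyp2c50, and Cyp2c54, the log2 fold change in DKO was -0.59 (SE 0.290, adjusted p = 0.254) against control and -0.84 (SE 0.319, adjusted p = 0.156) against p65 KO. The call of Cyp2c37 in DKO against p65 KO held in 4 of the 10 fits that left out 1 library, and it was lost without either Nrf2 KO library, either p65 KO library, DKO replicate 1, or DKO replicate 2 (adjusted p from 0.0502 to 0.157).

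Cyp2c50 and Cyp2c54, which like other Cyp2c enzymes oxidize arachidonic and linoleic acid, were low in 2 DKO mice and above the control mean in the third. Normalized counts of Cyp2c50 were 15173, 16979, and 15039 in control, 13491 and 11943 in Nrf2 KO, 17712 and 19274 in p65 KO, and 8691, 6186, and 18237 in DKO. Cyp2c54 had 5440, 6029, and 6471 in control, 5124 and 4549 in Nrf2 KO, 7957 and 7708 in p65 KO, and 2613, 2715, and 6798 in DKO. For both genes, the Nrf2 KO libraries were below and the p65 KO libraries above all controls, while the DKO libraries lay on both sides of the control range. No comparison of either gene with control passed the test, with log2 fold changes of -0.51 (SE 0.302, adjusted p = 0.343) for Cyp2c50 and -0.57 (SE 0.301, adjusted p = 0.294) for Cyp2c54 in DKO. In DKO against p65 KO, Cyp2c54 did not pass (-0.95, adjusted p = 0.129), but it did with equal totals (adjusted p = 0.0345), without further scaling (0.0445), and with the replicate number as a block (0.0388). Over the 10 libraries their log2 levels had a Pearson correlation of 0.95, given as a description, since they share libraries and some sequence.

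Cyp2c29 encodes an abundant Cyp2c enzyme that forms epoxides of arachidonic acid and is inducible through CAR. Normalized counts were 40073, 41755, and 32871 in control, 38015 and 42650 in Nrf2 KO, 25402 and 31350 in p65 KO, and 21729, 15749, and 44525 in DKO. Nrf2 KO overlapped control, both p65 KO libraries were below it, and DKO lay on both sides. The log2 fold changes were 0.08 (SE 0.337), -0.43 (SE 0.342), and -0.48 (SE 0.303), with adjusted p of 0.976, 0.418, and 0.37.

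Without DKO replicate 3, Cyp2c29 (-1.03, adjusted p = 0.0132), Cyp2c50 (-1.08, adjusted p = 0.00533), and Cyp2c54 (-1.16, adjusted p = 0.000787) passed both thresholds in DKO against control together with Cyp2c37. That made 4 of the 10 genes called, where 2.33% of all genes were called in the same fit. DKO replicate 3 is singled out here because it was high for these same genes. The fit without it therefore shows how far the results depend on 1 library and is no separate test of them. DKO replicate 3 had 116%, 116%, and 114% of the control mean for Cyp2c29, Cyp2c50, and Cyp2c54, against 39.3% to 56.8% in the other DKO libraries. Compared with Nrf2 KO in this fit, Cyp2c29 (-1.10, adjusted p = 0.0374), Cyp2c37 (-1.37, adjusted p = 0.00364), and Cyp2c38 (-1.69, adjusted p = 0.00555) were called, where 0.494% of all genes were. The labels give no feature that sets DKO replicate 3 apart from the other DKO mice.

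**Figure D3:**
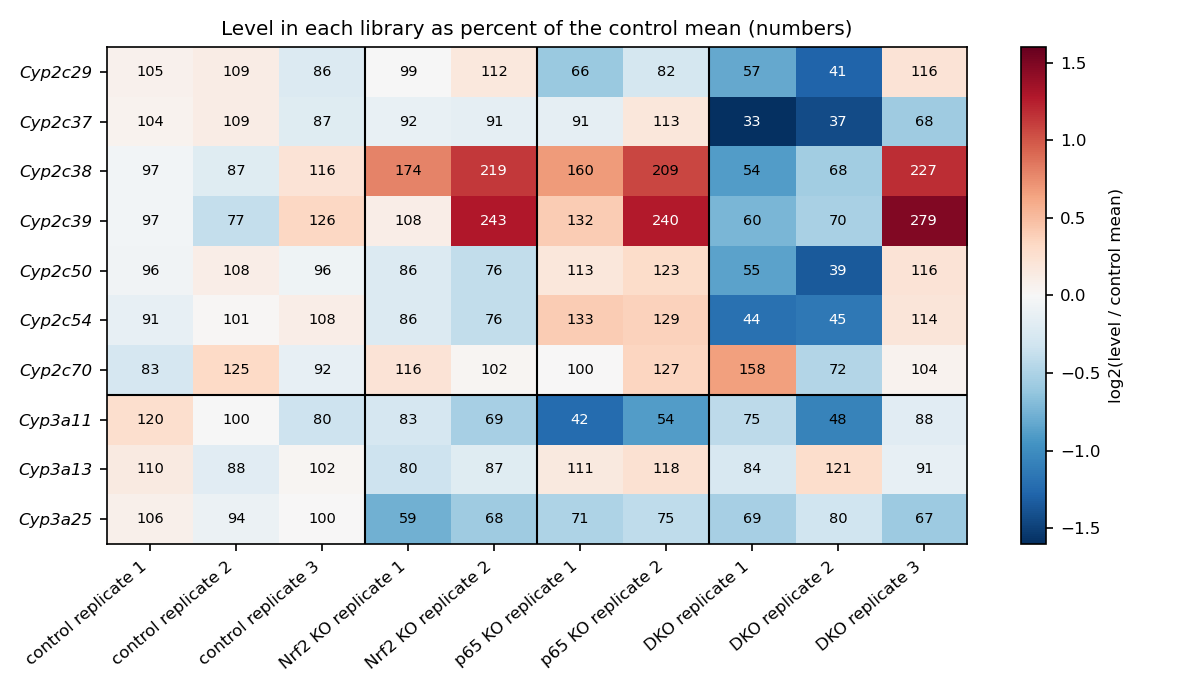
Level of each gene in each library as a percentage of the control mean (numbers), colored by its log2 value, with lines between genotypes and between families. DKO replicates 1 and 2 were below all controls for 6 and 7 of the 7 Cyp2c genes, and DKO replicate 3 for 1, Cyp2c37.

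Cyp2c38 and Cyp2c39 encode further epoxygenases of this group. Cyp2c38 had 406, 366, and 488 normalized counts in control, 733 and 922 in Nrf2 KO, 671 and 876 in p65 KO, and 226, 285, and 954 in DKO. Both single knockouts were above all controls, and DKO lay on both sides. The log2 fold change was 0.98 in Nrf2 KO (SE 0.469, 95% interval -0.06 to 2.01, adjusted p = 0.575) and 0.88 in p65 KO (SE 0.470, 95% interval -0.16 to 1.92, adjusted p = 0.226). Without DKO replicate 3, which enters the common estimate of the spread, the adjusted p was 0.0395 and 0.0132 at nearly the same log2 fold changes. That library stood far from the other DKO libraries for Cyp2c38, so the fit without it is no separate test. When only the genotypes compared were fitted, which also leaves out DKO replicate 3, the adjusted p was 0.0414 and 0.0141. That fit is no separate test either. With the replicate number as a block, the log2 fold change of Cyp2c38 in p65 KO was 1.23 (adjusted p = 0.0464). Cyp2c39 had a log2 fold change of 0.81 (SE 0.674) for Nrf2 KO, 0.89 (SE 0.675) for p65 KO, and 0.44 (SE 0.625) for DKO, none of which passed. Its libraries ranged from 14.8 to 24.3 normalized counts in control and from 11.6 to 53.8 in the knockouts.

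Cyp2c70 encodes the enzyme that makes muricholic acids, bile acids of mice. It had 10615, 15966, and 11694 normalized counts in control, 14818 and 12978 in Nrf2 KO, 12761 and 16146 in p65 KO, and 20210, 9238, and 13284 in DKO. Its libraries overlapped between all genotypes. The log2 fold changes against control were 0.12 (SE 0.280), 0.18 (SE 0.280), and 0.16 (SE 0.252), and the 95% interval reached from -0.40 to 0.71 in DKO. DKO replicate 1, which was low for Cyp2c37, had the highest Cyp2c70 level.

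The 10 genes were then counted against all 13641 genes tested. In Nrf2 KO, 1 of the 10 genes passed an adjusted p of 0.05 and 0 also passed the fold threshold, where 0.726% and 0.55% of all genes did. DESeq2 and limma called 0 as well, and 1 gene had an unadjusted p under 0.05. In p65 KO, 2 genes passed the adjusted p and 1 both thresholds, where 14.9% and 6.59% of all genes did, so the share of the 10 genes was near that of all genes. In DKO, 2 genes passed and 1 was called, where 5.45% and 2.38% of all genes did. The libraries did not overlap between knockout and control for 5 genes with Nrf2 KO, 8 with p65 KO, and 2 with DKO, where 28.5%, 50%, and 26.5% of all genes had this property.

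In DKO against p65 KO, Cyp2c37 was the 1 gene that passed the adjusted p and also the fold threshold, where 4.11% and 1.78% of all genes did, and 2 genes did not overlap, where 38.6% of all genes did not. In DKO against Nrf2 KO, edgeR, DESeq2, and limma called 0, where edgeR called 0.433% of all genes, and 1 gene had an unadjusted p under 0.05. In the interaction the 3 tools again called 0, where edgeR called 0.455%, and 4 genes had an unadjusted p under 0.05. Without DKO replicate 3, the interaction of Cyp2c37 (-1.40, adjusted p = 0.0156), Cyp2c38 (-2.57, adjusted p = 0.00597), and Cyp2c54 (-1.24, adjusted p = 0.0127) was called, where 0.67% of all genes were. That fit is singled out by the values of these same genes, so its calls are no separate test. The median log2 fold change of the 10 genes was -0.20 for Nrf2 KO, 0.19 for p65 KO, and -0.48 for DKO, against medians of 0.00, 0.00, and 0.02 over all genes tested.

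**Figure D4:**
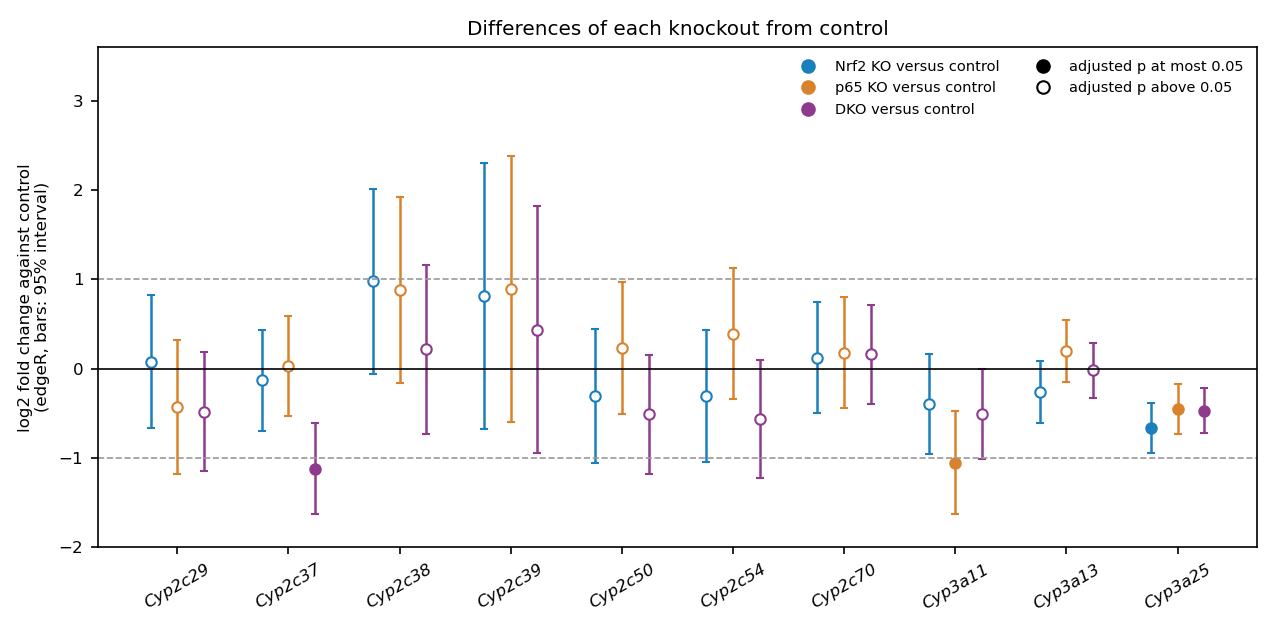
Log2 fold change of each gene in each knockout against control, with 95% intervals and filled points where the adjusted p was at most 0.05. Filled points are Cyp3a25 in all 3 knockouts, Cyp3a11 in p65 KO, and Cyp2c37 in DKO, and the dashed lines mark the fold threshold.

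The summed level of the 3 Cyp3a genes, which Cyp3a11 dominated, came to 74.7% of the control mean for Nrf2 KO, 52.6% for p65 KO, and 71.2% for DKO. The summed Cyp2c genes stood at 99%, 95.9%, and 76.7%. Within DKO, that sum was 54614, 35463, and 86167 normalized counts in the 3 libraries, against 69571 to 84833 in control. The sums are given without a test.

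Other genes of both families were examined in the same fit. Of 10 other Cyp2c genes listed, 6 were tested and none passed against control. Cyp2c67 differed between DKO and p65 KO by -0.93 on the log2 scale (SE 0.178, adjusted p = 0.022), and it shares 19.8% of its 100-base words with other genes, so its split is uncertain. Of 6 other Cyp3a genes, 5 were tested and 1 passed. Cyp3a59, the closest relative of Cyp3a25 by shared sequence, had 1896, 1820, and 1693 normalized counts in control and 707 and 889 in Nrf2 KO. Both Nrf2 KO libraries were below all controls, with a log2 fold change of -1.18 (SE 0.183, adjusted p = 0.0174). The sum of Cyp3a25 and Cyp3a59 fell by 0.69 with Nrf2 KO (adjusted p = 0.0386), by 0.45 with p65 KO (adjusted p = 0.0359), and by 0.47 with DKO (adjusted p = 0.0349) on the log2 scale.

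Among 12 receptors listed as regulators of P450 genes, most of them nuclear receptors, 11 were tested. Nr1i3, which encodes CAR, had 4301, 4523, and 4679 normalized counts in control, 1966 and 1892 in Nrf2 KO, 6446 and 5794 in p65 KO, and 1329, 1384, and 2148 in DKO. Nrf2 KO and DKO were below and p65 KO above all controls. Nr1i3 fell by 1.22 in Nrf2 KO (SE 0.188, adjusted p = 0.0172) and by 1.47 in DKO (SE 0.166, adjusted p = 0.00133) on the log2 scale, and it was the 1 receptor of the 11 that passed in either comparison. Nr1i2, which encodes PXR, had log2 fold changes of -0.17 (SE 0.162), 0.30 (SE 0.160), and -0.01 (SE 0.145), none of which passed.

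In p65 KO, 3 receptors rose and 1 fell. Those that rose were Ppara (0.88, adjusted p = 0.0393), Rxra (0.49, adjusted p = 0.0492), which encodes the partner of CAR and PXR, and Ahr (1.01, adjusted p = 0.0498). Nr0b2, a repressor of nuclear receptors, fell by 1.16 on the log2 scale (adjusted p = 0.0266). Of 10 liver transcription factors, Foxa3 (1.01), Prox1 (0.88), Hnf4a (0.46), and Cebpa (0.71) rose in p65 KO and none passed in Nrf2 KO or DKO. Their adjusted p in p65 KO lay between 0.00221 and 0.0277.

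Por, the electron donor of the P450 enzymes, had 5487, 4521, and 6088 normalized counts in control, 4388 and 5117 in Nrf2 KO, 12138 and 17875 in p65 KO, and 6498, 8346, and 13582 in DKO. Both p65 KO and all DKO libraries were above the controls. The log2 fold change was 1.48 in p65 KO (SE 0.272, adjusted p = 0.00711), where Cyp3a11 fell. Alas1 had 14138, 10406, and 4732 normalized counts in control against 1787 and 1594 in Nrf2 KO, and fell by 2.53 on the log2 scale (SE 0.472, adjusted p = 0.0412). In DKO, 4 of the 15 genes of electron transfer and heme supply fell and none rose, with Pgrmc1 (-0.63), Cyb5a (-0.59), and Cyb5b (-0.63) for electron transfer or heme handling and Cpox (-0.73) for heme synthesis (adjusted p between 0.0107 and 0.0301).

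**Figure D5:**
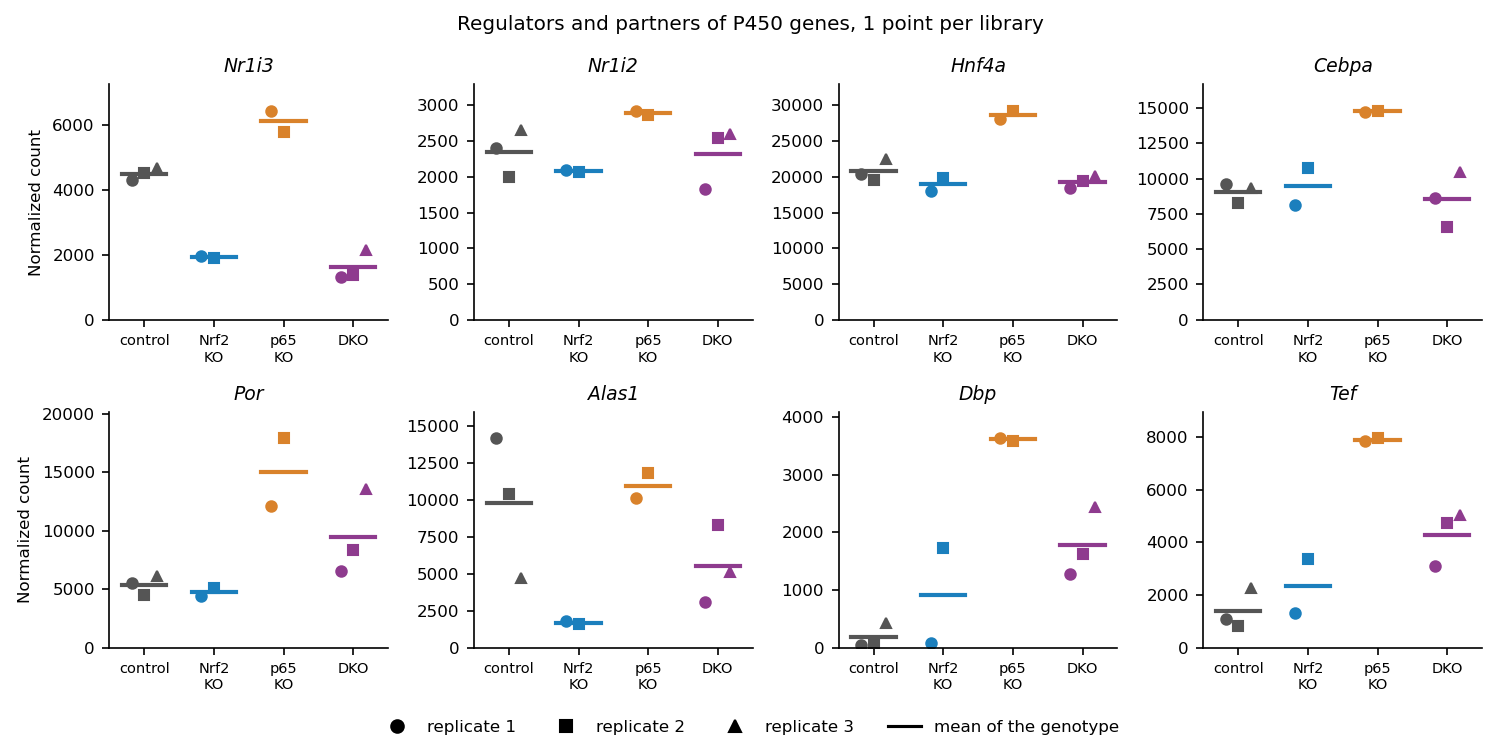
Normalized counts of 8 regulators and partners of P450 genes in each library, with marker shape for the replicate and a line at the mean of the genotype. Nr1i3 was below all controls in every Nrf2 KO and DKO library, and Por, Hnf4a, and Cebpa were highest in p65 KO on average.

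Clock genes moved strongly in the p65 KO libraries, in which Cyp3a11 was low. Of 14 PAR-bZIP and clock genes, 8 were higher and 4 lower in p65 KO, and 4 were higher and 3 lower in DKO. Dbp, a transcription factor of the D-box, had 45.3, 54.1, and 426 normalized counts in control and 3627 and 3589 in p65 KO, a log2 fold change of 4.35 (SE 1.05, adjusted p = 0.0213). Tef, its relative, had 2.50 (adjusted p = 0.0057), and Bmal1 fell by 4.93 (adjusted p = 0.000914) on the log2 scale. The control libraries themselves differed, since Dbp was highest and Cyp3a11 lowest in control replicate 3. The part of these genes in the result for Cyp3a11 was not tested.

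Markers of other liver cells also moved with p65 KO. The 12 Kupffer cell and macrophage markers summed to 428 to 1068 normalized counts in control, 308 to 916 in Nrf2 KO, 4814 to 6491 in p65 KO, and 1833 to 3195 in DKO, and 12 of 12 passed in p65 KO and 6 of 12 in DKO, all higher. Sinusoidal endothelial markers (6 of 6 higher in p65 KO) summed to 456 to 1019 in control and 2266 to 3149 in p65 KO, and stellate cell markers (5 of 6 higher) to 131 to 322 and 1454 to 1459. In DKO the endothelial markers summed to 1127 to 1584 and the stellate cell markers to 247 to 650. There, 1 of 6 genes passed in each list, both higher. The 8 hepatocyte markers, of which none passed, summed to 4257400 to 5798000 in control, 4632400 to 4893900 in p65 KO, and 5129300 to 5296100 in DKO. For DKO replicate 3, the Kupffer cell sum of 1833 was the lowest of the DKO libraries. T and NK cell markers summed to 0 to 1.97 in control, 11.3 to 16.3 in p65 KO, and 2.29 to 11.6 in DKO. The 4 neutrophil markers summed to 1.87 to 4.92 in control, 10.4 to 50.8 in p65 KO, and 8.01 to 28.4 in DKO. B cell markers stayed at or under 9.14 normalized counts in sum in every library. Of these 3 lists, only 1 gene passed against control, a neutrophil marker that was higher in p65 KO. Erythroid markers summed to 3362 to 4675 in control, 3133 to 3516 in p65 KO, and 4730 to 5605 in DKO, and none passed. The part of these cells in the results for Cyp3a11 and Cyp2c37 was not tested.

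The genes outside both families whose log2 levels over the 10 libraries were most like those of Cyp3a11 were Psmd14 (Pearson correlation 0.976), Commd7 (0.969), and Pgrmc2 (0.961), among 10169 genes compared. Psmd14 encodes a proteasome subunit, and it ranged from 1688 to 1926 normalized counts in control and from 1011 to 1200 in p65 KO. For Cyp2c29 they were Vcp (0.945), Sntb1 (0.935), and Dync1i2 (0.926). Sntb1, a syntrophin gene, had 1939, 1787, and 3006 normalized counts in the DKO libraries, and like Cyp2c29 it was highest in DKO replicate 3. These correlations describe libraries that share genotype and preparation and carry no test.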

How the data were processed

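RNA of hepatocytes from 10 mice was sequenced after poly-A enrichment and a stranded single-end protocol with reads of 100 bases. The authors ran Salmon 1.10.3 on GRCm39 with the GENCODE M33 models, and the deposited table holds estimated counts by gene as whole numbers. Its name calls it normalized, yet library totals differ, so the values were used as estimated counts. The step from transcripts to genes is not given in the sources used here.

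The estimated counts were tested with the quasi-likelihood test of edgeR 4.0.16 (R 4.3.3) after TMM normalization. Genes whose counts over all libraries reached 10 were kept, which left 13641 of 21939 genes. The deposited table itself is not filtered, since 6302 genes are at 0 in every library. All 4 genotypes shared 1 estimate of the spread. P-values were adjusted over all genes tested by the Benjamini-Hochberg method within each of 6 comparisons. A gene passed the test at an adjusted p of at most 0.05 and was called when its log2 fold change was also at least 1 in either direction, the thresholds used by the authors. Normalized counts are estimated counts divided by TMM-scaled library sizes. Tests are two-sided, and intervals are 95% intervals.

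The members and the gene lists were chosen with earlier results of these data known. Named genes are the 10 members, list genes that passed against control, regulators given by value, Nfe2l2, Rela, and the 3 genes most correlated with Cyp2c29 and Cyp3a11 among genes that averaged 50 or more normalized counts. Cyp2c67 was added after its values had been seen. Markers named without values only show what a list holds. The result of 1 list gene that passed is not reported here. GENCODE M39 (GRCm39) supplied names for 21926 of 21939 identifiers. Arntl is given under its current name Bmal1. Promoters came from RefSeq (GRCm38.p6) and were aligned with Biopython 1.88.

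Total counts ranged from 33707165 to 49897382 per library. Replicates differed by more than sampling noise (chi-square over degrees of freedom from 44.8 to 204), and none was treated as a copy. Counts were simulated for the comparisons of Nrf2 KO (13503 genes), p65 KO (13511 genes), and DKO (13492 genes) with control. Of 200 changed genes in each, edgeR recovered 93.5%, 93%, and 96%, with 7, 3, and 12 false calls. These shares hold only for the changes that were planted. They do not give the chance of finding changes of the size reported here, or changes in low-count genes such as Cyp2c39. Alternatives were DESeq2 1.42.0, limma 3.58.1 on log2 values with pseudocounts of 1 and 10, other scalings and filters, a replicate block, only the genotypes compared, summed paralogs, and leaving out each library. Figures were drawn with matplotlib 3.10.9.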

Additional observations from a re-analysis of the deposited data

How the results depend on the processing

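None of the calls of the 10 genes changed direction under the alternatives run. The number of the 10 genes called in p65 KO against control was 1, and it was 0 with equal totals and 0 without further scaling, where the log2 fold change of Cyp3a11 fell short of 1, and between 0 and 1 when 1 library was left out. In DKO against control it was 1, became 0 when only the genotypes compared were fitted, and ranged from 0 to 4 when 1 library was left out. In DKO against p65 KO it was 1, 2 with equal totals, without further scaling, or with the replicate block, 0 when only the genotypes compared were fitted, and 0 to 4 when 1 library was left out. In DKO against Nrf2 KO it was 0, 1 without further scaling, and 0 to 3 when 1 library was left out. In the interaction it was 0 and ranged from 0 to 3. Both values of 4 and both of 3 were those without DKO replicate 3. The cause was not tested. Without further scaling, the median log2 fold change of all genes was 0.17 in Nrf2 KO and -0.12 in DKO, so changes are read relative to it. Over all genes, edgeR called 75 in Nrf2 KO, 899 in p65 KO, 325 in DKO, 243 in DKO against p65 KO, 59 in DKO against Nrf2 KO, and 62 in the interaction. In the same order, apart from p65 KO, DESeq2 called 135, 534, 453, 296, and 249. Leaving out 1 library gave 18 to 84, 325 to 954, 147 to 316, 70 to 294, 18 to 81, and 8 to 119 calls in the 6 comparisons. With only the genotypes compared, 215 were called in DKO, 105 in DKO against p65 KO, and 18 in DKO against Nrf2 KO. Equal totals gave 504 in DKO against p65 KO and 118 in the interaction, no further scaling 251 in DKO against Nrf2 KO and 170 in the interaction, no filter 112 and 137 in these, and limma with a pseudocount of 10 gave 365 in DKO against p65 KO.

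The labels number the mice of each genotype and give no other link between same-numbered mice. Deviations of same-numbered libraries from their genotype had correlations between -0.232 and 0.113. These rest on 2 or 3 mice per genotype and cannot show whether same-numbered mice had anything else in common. With the replicate block, Cyp3a11 in p65 KO had a log2 fold change of -1.02 (adjusted p = 0.06) and Cyp3a25 had -0.69, -0.48, and -0.48 (adjusted p = 0.114, 0.0746, and 0.0733). The number of the 10 genes called in p65 KO stayed at 1 with the block, since Cyp2c38 was called in place of Cyp3a11. The block changed the number in DKO against p65 KO but in none of the other comparisons, and over all genes it gave 37 calls in DKO against Nrf2 KO. With 2 or 3 mice per genotype, the 95% intervals of the log2 fold changes reached up to 1.49 to either side in comparisons with control.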

Other observations

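Genes that mark the liver zones also differed between the genotypes. Of 13 pericentral genes, which share the zone around the central vein with most Cyp2c and Cyp3a expression, 5 rose in p65 KO and none passed in Nrf2 KO. Glul, which encodes glutamine synthetase, had 6371, 5258, and 4719 normalized counts in control, 12849 and 14801 in p65 KO, and 5739, 6094, and 6785 in DKO. It was thus highest in the p65 KO libraries, with a log2 fold change of 1.34 (SE 0.172, adjusted p = 0.00174), and its interaction was -1.54 (SE 0.243, adjusted p = 0.0281). Slc1a2 (2.24), Gulo (1.02), and Cyp1a2 (0.96), a P450 gene of another family, also rose in p65 KO. Of 12 periportal genes, 4 rose in DKO, among them Ass1 (0.96, adjusted p = 0.0031) and Cps1 (0.72, adjusted p = 0.0248) of the urea cycle, while in p65 KO Cps1 rose and Cdh1 fell.

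Of 12 acute phase genes, Lcn2 (2.67), Orm2 (1.95), and Saa3 (-2.99) passed in p65 KO, and Lcn2 (3.16), Orm2 (2.45), Saa2 (1.90), and Saa3 (-2.57) passed in DKO. None passed in Nrf2 KO. Of 7 regulators of growth hormone signaling and sex-dependent expression, Stat5b (-0.67, adjusted p = 0.0352) and Cux2 (3.72, adjusted p = 0.0421) passed in p65 KO, Cux2 at 32.5 and 15.1 normalized counts, and none passed in Nrf2 KO or DKO. Of 4 cholangiocyte markers, 2 were tested, and none passed against control.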
